A study of Homo sapiens with 5 samples.

Results

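Sites of steroidogenic factor-1 (SF-1) inside protein-coding sequence are described here. They are the peaks whose centre lay in a coding interval (CDS) of a protein-coding gene and more than 1 kb from the start of every protein-coding gene. This position rule chose 990 of the 30372 peaks of the study, 103 of 4393 in the basal Millipore list, 559 of 11910 in the overexpressed Millipore list, 133 of 6616 in the basal Perseus list and 195 of 7453 in the overexpressed Perseus list. Joined where they overlapped, the 990 peaks made 864 distinct sites in 800 genes, out of 25693 sites over all peaks.

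The peaks come from ChIP-seq (chromatin immunoprecipitation and sequencing) of SF-1 in cells named H295R/TR SF-1, derived from the human adrenocortical tumor line H295R so that doxycycline turns on additional SF-1. The basal dosage is that of untreated cells, the overexpressed dosage that of cells given doxycycline over 3 days, and each dosage was precipitated with an anti-SF-1 antibody from Millipore and another from Perseus. A peak list pools 3 libraries of a dosage and antibody against 2 libraries of input DNA, so there is 1 list per group, no replicate error, and no statement here about other subclones or other inducible lines. Read numbers are unknown, every interval below is a 95% interval that covers counting error over peaks only, and peak lists of a single line offer no marker by which its identity could be checked.

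SF-1 is encoded by NR5A1 and belongs to the nuclear receptors of the adrenal cortex and the gonads, where it controls the genes of steroid hormone synthesis. It binds as a monomer to an extended half-site, searched here as a consensus of 9 bases on both strands: the core CAAGG, preceded by C or T and followed by C or T, then C, then A or G. Transcription factors mostly bind promoters and enhancers, but some sites fall within exons, where the same bases also encode protein and the choice of sequence is limited by the reading frame.

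The sequences of the best-supported coding sites are shown first because they carry the sequence results below. Peaks of different lists were taken as shared where they overlapped by at least 1 bp. The first set comes from the 12 best-placed coding sites with a peak in all 4 lists, ordered by the poorest of their 4 ranks, and shows sites whose coding peaks contained the SF-1 consensus, as those of 10 did. The copy at CIB1 lay in the untranslated end of the transcript and is not shown. Each line gives 109 bases of the GRCh37 (hg19) reference, 5′ to 3′ on the strand that carries the consensus, which stands in capitals with 50 bases on each side.
POR at chr7:75615022-75615130, plus strand: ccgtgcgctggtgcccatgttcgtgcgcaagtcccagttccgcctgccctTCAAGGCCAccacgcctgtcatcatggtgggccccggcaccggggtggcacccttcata
VSIG8 at chr1:159824558-159824666, minus strand: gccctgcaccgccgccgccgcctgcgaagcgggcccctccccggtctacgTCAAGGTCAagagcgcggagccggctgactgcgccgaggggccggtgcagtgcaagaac
APOA1 at chr11:116706524-116706632, minus strand: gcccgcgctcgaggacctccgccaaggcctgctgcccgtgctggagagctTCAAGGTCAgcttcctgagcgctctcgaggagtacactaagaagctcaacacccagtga
SRCIN1 at chr17:36707470-36707578, minus strand: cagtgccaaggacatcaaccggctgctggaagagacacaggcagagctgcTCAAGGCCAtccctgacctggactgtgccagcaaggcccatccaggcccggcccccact
PTPN6 at chr12:7064091-7064199, plus strand: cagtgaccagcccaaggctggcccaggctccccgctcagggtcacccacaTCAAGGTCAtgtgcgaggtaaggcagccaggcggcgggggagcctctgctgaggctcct
PROSER3 at chr19:36258650-36258758, plus strand: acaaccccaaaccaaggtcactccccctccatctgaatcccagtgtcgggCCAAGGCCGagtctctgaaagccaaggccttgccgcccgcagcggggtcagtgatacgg
ACVRL1 at chr12:52306210-52306318, minus strand: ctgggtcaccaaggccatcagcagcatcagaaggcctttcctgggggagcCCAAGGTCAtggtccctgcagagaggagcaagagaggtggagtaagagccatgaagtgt
DCAKD at chr17:43107727-43107835, minus strand: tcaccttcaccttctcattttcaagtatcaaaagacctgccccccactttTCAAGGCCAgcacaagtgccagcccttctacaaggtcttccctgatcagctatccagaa

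The second set comes from the 5 best-ranked coding peaks of each list, leaving out those already shown. CORO2B, CCDC71, IRS2 and ZIC5 carried the SF-1 consensus in capitals. CELSR3 carried a match to the consensus of neuron-restrictive silencer factor (NRSF/REST), a repressor of neuronal genes. Up to 4 of the 19 fixed positions of the consensus could differ, and the CELSR3 match differs at 4, the most allowed.
CORO2B at chr15:68987366-68987474, plus strand: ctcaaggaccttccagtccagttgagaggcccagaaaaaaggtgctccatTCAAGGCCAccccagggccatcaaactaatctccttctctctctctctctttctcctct
CCDC71 at chr3:49200565-49200673, minus strand: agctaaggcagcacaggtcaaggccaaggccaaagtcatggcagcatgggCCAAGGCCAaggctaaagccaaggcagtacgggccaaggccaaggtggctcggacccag
IRS2 at chr13:110434945-110435053, minus strand: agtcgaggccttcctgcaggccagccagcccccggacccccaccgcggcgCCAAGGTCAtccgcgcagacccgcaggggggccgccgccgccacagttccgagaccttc
ZIC5 at chr13:100622457-100622565, minus strand: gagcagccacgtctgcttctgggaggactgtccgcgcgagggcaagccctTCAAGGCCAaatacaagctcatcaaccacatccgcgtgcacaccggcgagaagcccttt
CELSR3 at chr3:48699260-48699380, minus strand: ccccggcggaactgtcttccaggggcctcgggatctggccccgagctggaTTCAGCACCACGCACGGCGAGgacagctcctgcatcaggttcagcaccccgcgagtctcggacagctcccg
Each sequence shown with the SF-1 consensus carried it on the strand of the gene, except that of ACVRL1. In all of those shown but CORO2B the 9 bases lay wholly in coding sequence. In CORO2B they lay beside the exon, although the peak centre was coding.

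The coding peaks were short. Their median width was the same in each list and in the other peaks, and their widths ranged from 99 to 799 bp. The median share of a peak's width inside coding sequence was 80.4%, 82.9%, 83.9% and 82.9% in the basal Millipore, overexpressed Millipore, basal Perseus and overexpressed Perseus lists, and 34, 200, 51 and 77 peaks lay wholly in it. CIB1, which encodes a calcium- and integrin-binding protein, was at the other end, with 5.44% of its 349 bp in coding sequence. The distance rule removed many more peaks in some lists than in others: 10 of 113 peaks centred in coding sequence in the basal Millipore list, 215 of 774 in the overexpressed Millipore list, 165 of 298 in the basal Perseus list and 238 of 433 in the overexpressed Perseus list. The members nearest to the limit were in LMNB1, CELSR3 and CSTF2T, at 1010, 1019 and 1030 bp from a start, and the nearest excluded peaks were in TREX1, CELSR3 and RPS6KA1, at 990, 994 and 998 bp. The peak in CELSR3 at the basal dosage, rank 27 of the Millipore list, was thus left out at 994 bp, and the overlapping peak of the overexpressed list at rank 98 was kept at 1019 bp.

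More SF-1 peaks fell in coding exons than the size of these exons alone would give, and with the Millipore antibody the share was larger after overexpression. Coding peaks made up 2.35% (1.94 to 2.84%) of the basal Millipore list, 4.69% (4.33 to 5.09%) of the overexpressed Millipore list, 2.01% (1.70 to 2.38%) of the basal Perseus list and 2.62% (2.28 to 3.00%) of the overexpressed Perseus list. Coding sequence more than 1 kb from gene starts spans 32.6 Mb, or 1.14% of the known bases, so the shares were 2.05, 4.11, 1.76 and 2.29 times as large. The overexpressed Millipore list stood above the 3 others, whose intervals overlapped one another. The larger share after overexpression with Millipore was not particular to coding exons. Peaks within 1 kb of gene starts made up 4.188% of the basal and 12.63% of the overexpressed Millipore list. Other exons held 3.597% and 4.954%, in the same order. The share of introns moved differently, at 42.2% of the basal and 40.1% of the overexpressed Millipore peaks. So did the share outside all of these places, at 47.7% and 37.6%.

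**Figure D1:**
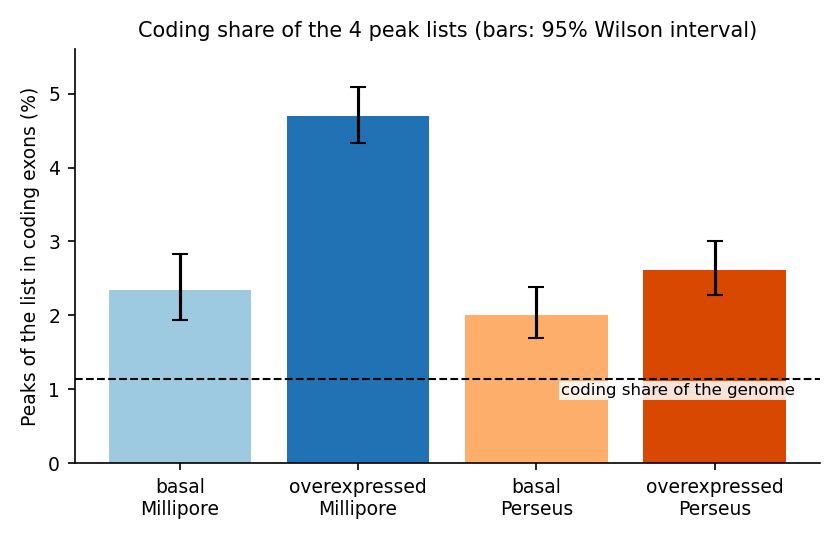
Share of each peak list (percent, bars from 0) whose peak centre lay in a coding exon more than 1 kb from gene starts, with 95% Wilson intervals, and as a dashed line the coding share of the genome, 1.14%. The overexpressed Millipore list reached 4.69%, and the 3 other lists lay between 2.01% and 2.62%.

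With Millipore, the coding share was 2.35 percentage points higher after overexpression (Newcombe interval 1.74 to 2.92). With Perseus it was 0.606 points higher (0.107 to 1.10). As odds ratios these were 2.05 (Woolf interval 1.66 to 2.54) and 1.31 (1.05 to 1.64), and their ratio of 1.57 (1.15 to 2.13) left out 1. The ratio was 1.40 (0.972 to 2.01) with lists cut to the shortest and 1.35 (0.888 to 2.05) with the better-ranked 50%, neither of which left out 1. The GC content of the peaks moved with these results. Within strata of 5 points of GC content the odds ratios were 1.17 (0.933 to 1.48) and 1.22 (0.971 to 1.52), neither of which left out 1, and their ratio turned to 0.966 (0.700 to 1.33). With Perseus the difference of the shares was 0.0874 points (-0.276 to 0.445) when the starts of every transcript, and not only the outermost start of each gene, excluded a peak. Between antibodies, the overexpressed Perseus list differed from the overexpressed Millipore list by -2.08 points of coding share (-2.60 to -1.54), and the basal Perseus from the basal Millipore list by -0.334 points (-0.916 to 0.214). That gap of the overexpressed lists remained within GC strata, with an odds ratio of 0.554 (0.464 to 0.661). Between the basal lists the odds ratio was 0.854 (0.659 to 1.11), and 0.664 (0.497 to 0.887) within GC strata, which left out 1.

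Within coding sequence the peaks lay in GC-rich exons, except for the basal Millipore list. The comparison was with every window of the median peak width, a base short of 3 steps of a 50-bp grid, whose centre met the same rule. These were 653401 windows without any random draw, and each peak entered with its centre cut to the same width. GC content averaged 50.4% ± 11.5 (SD) over the windows. It was 51.7% ± 9.85 (SD, n = 103 peaks) in the basal Millipore list, 1.32 points above the windows with an interval from -0.585 to 3.22. It was 60.5% ± 7.87 (SD, n = 559 peaks) in the overexpressed Millipore list, 59.6% ± 13.2 (SD, n = 133 peaks) in the basal Perseus list and 64.6% ± 9.52 (SD, n = 195 peaks) in the overexpressed Perseus list. These were 10.04 (9.39 to 10.7), 9.14 (6.89 to 11.4) and 14.2 (12.9 to 15.5) points above the windows. The peaks of the same lists outside coding exons had 46.4%, 55.3%, 52.3% and 54.1% GC, in the same order. CpG dinucleotides, the targets of DNA methylation, numbered 4.09, 6.77, 8.38 and 10.4 per central window of a coding peak, again in this order, against 3.92 in the windows.

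The yield of peaks per window showed where the lists parted. In coding windows with under 40% GC, the overexpressed lists had 3 Millipore and 4 Perseus peaks, or 0.212 (0.0437 to 0.620) and 0.283 (0.0770 to 0.724) per 10000 windows. The basal lists had 15 and 16 there, or 1.06 (0.593 to 1.75) and 1.13 (0.646 to 1.84). The basal Millipore list stayed between 1.06 and 1.85 peaks per 10000 windows over the whole range. The overexpressed Millipore list climbed to 20.6 (18.2 to 23.2) at 60 to 70% GC and had 19.1 (13.9 to 25.5) at 70% and over. Both Perseus lists were highest in the windows with 70% GC or more, with 12.7 (8.59 to 18.2) basal and 23.8 (18.0 to 30.9) overexpressed peaks per 10000. IRS2, the docking protein of the insulin receptor, is a GC-rich example: over their whole width its 7 coding peaks had 65.5 to 74.6% GC.

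**Figure D2:**
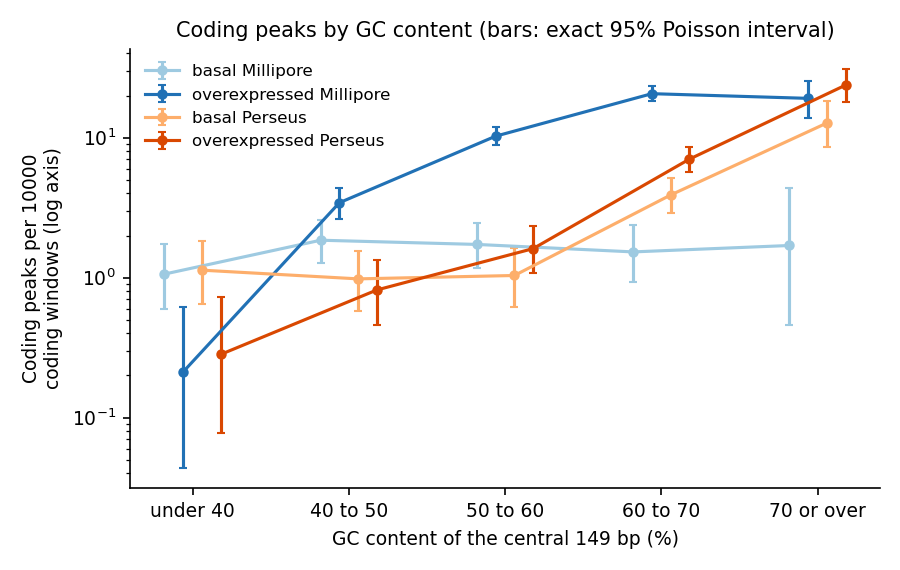
Coding peaks per 10000 coding windows (log axis) by the GC content of the centre of the peak, 1 line per list, with exact 95% Poisson intervals. The basal Millipore list is flat, between 1.06 and 1.85, and the overexpressed lists run from 0.212 and 0.283 under 40% GC to 19.1 and 23.8 at 70% GC or more.

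The Perseus peaks also lay in the first coding exon more often than the windows did. That exon can be long, as in IRS2 with 4012 bp, so this does not give the place along the coding sequence. Of the peaks in coding exons of the canonical transcript, 5 of 95 basal Millipore, 57 of 528 overexpressed Millipore, 24 of 121 basal Perseus and 57 of 179 overexpressed Perseus peaks were in the first coding exon. Those shares of 5.26%, 10.8%, 19.8% and 31.8% compare with 6.17% of the windows, and the differences were -0.907 (-3.90 to 5.57), 4.63 (2.26 to 7.56), 13.7 (7.54 to 21.7) and 25.7 (19.3 to 32.8) points. ZIC5 (a zinc finger factor of neural development) and IRS2 are first-exon cases with Perseus peaks. CELSR3 (a large cadherin of neurons) is a first-exon case of the overexpressed Millipore list. Internal exons held 49.2% of the overexpressed Perseus peaks against 73.5% of the windows. The last coding exon held between 13.7 and 17.4% of each list against 15.6% of the windows, with intervals that included no difference.

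**Figure D3:**
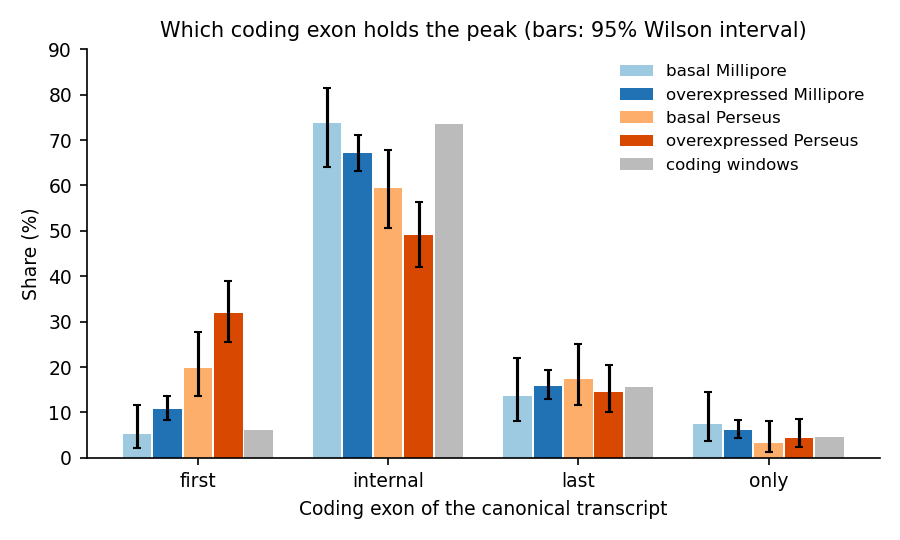
Share (percent, bars from 0) of coding peaks in the first, an internal, the last or the only coding exon of the canonical transcript, by list, with 95% Wilson intervals, and the same share of all coding windows in grey. The first coding exon runs from 5.26% of the basal Millipore peaks to 31.8% of the overexpressed Perseus peaks, against 6.17% of the windows.

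Many of these exons lie near the start of a transcript other than the outermost one, which the rule did not use. The start of some transcript of a protein-coding gene was within 1 kb of 33 of 103, 209 of 559, 58 of 133 and 104 of 195 coding peaks in the basal Millipore, overexpressed Millipore, basal Perseus and overexpressed Perseus lists. Those were 32.0%, 37.4%, 43.6% and 53.3%, against 28.0% of the coding windows, and the differences of 9.42 (5.51 to 13.5), 15.6 (7.51 to 24.1) and 25.4 (18.4 to 32.2) points of the last 3 lists left out 0. The first gave 4.07 points with an interval from -4.16 to 13.6. Among intron peaks of the overexpressed Perseus list the share was 18.3%. Among the peaks in other exons it was 31.01%, 46.4%, 58.1% and 60.2% in the same order of lists, so that the basal Millipore and overexpressed Perseus coding peaks did not differ from them beyond counting error and the others were lower, by -9.05 (-14.7 to -3.34) and -14.5 (-24.4 to -4.26) points. The coding peaks beyond 1 kb of any transcript start had 50.6%, 59.4%, 56.2% and 62.2% GC, and those within it 54.1%, 62.3%, 63.9% and 66.7%. VSIG8, ACVRL1, POR, DCAKD and PROSER3, shown above, lie within 1 kb of such a start, whereas IRS2, CCDC71, APOA1, SRCIN1, PTPN6, CORO2B, ZIC5 and CELSR3 do not. The best-ranked coding peaks of ACVRL1 and DCAKD were centred in coding sequence of a transcript other than the canonical one. So was the RBPJ peak at rank 403 of the basal Perseus list, 4 bp from such a start.

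The SF-1 consensus was far more frequent in coding peaks than in coding sequence at large. It was in the central window of 21.4% of basal Millipore, 9.48% of overexpressed Millipore, 22.6% of basal Perseus and 17.4% of overexpressed Perseus coding peaks, and in 1.54% of the windows, or 13.9, 6.15, 14.6 and 11.3 times as often. Each difference left out 0, and the smallest was 7.94 points (5.78 to 10.7) in the overexpressed Millipore list. Over the whole width of the peaks, 25 of 103, 63 of 559, 37 of 133 and 42 of 195 coding peaks held it, or 24.3%, 11.3%, 27.8% and 21.5%. Among all peaks of each list 16.0%, 10.9%, 21.6% and 17.2% did. Against the other peaks of the same list the coding peaks were 8.51 points (1.17 to 17.7) higher in the basal Millipore list. This was 6.21 points with an interval from -1.86 to 17.2 without the peaks near any transcript start. Against single places it was 5.49 points (-1.995 to 14.8) for introns, 2.12 (-8.03 to 12.9) for other exons and 3.62 (-6.07 to 14.1) within 1 kb of gene starts. In the overexpressed Millipore, basal Perseus and overexpressed Perseus lists the differences from the other peaks were 0.425 (-2.01 to 3.37), 6.32 (-0.668 to 14.5) and 4.43 (-0.839 to 10.8) points. None of these left out 0. With the 7-base core CAAGGNC in its place, which any copy of the consensus contains, the overexpressed Perseus coding peaks were 12.2 points (5.32 to 19.3) above the others.

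The coding peaks held 139 distinct copies of the consensus, of which 113 (81.3%) lay wholly in coding sequence. That share is set in large part by the rule, since the peaks were centred there. Their median distance from the centre was 33.0 bp in the basal Millipore, 37.5 bp in the overexpressed Millipore, 39.0 bp in the basal Perseus and 42.0 bp in the overexpressed Perseus list, and the width of the peaks limits these distances. CCDC71, a coiled-coil domain gene, held 5 copies in a single overexpressed Millipore peak, in the repeated stretch partly shown above. The canonical coding territory contains 3527 copies in all, and 102 of them, 2.89% (2.39 to 3.50%), were inside a coding peak of any list. Of those 102, 70 read along the gene and 56 (54.9%) began at the second base of a codon, a phase in which AAG is a lysine codon, as in POR and VSIG8. Of the 3425 copies outside coding peaks 45.8% had this phase, and the difference of 9.09 points had an interval from -0.711 to 18.5.

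The NRSF/REST consensus was rare in coding peaks. It was found in 4 of 559 overexpressed Millipore peaks (0.716%, Wilson interval 0.279 to 1.83%) and 1 of 195 overexpressed Perseus peaks, against 0.186% of coding windows. These 5 peaks were in ADGRA1 (an adhesion receptor), CELSR3, LHFPL4 (a partner of inhibitory synapse receptors) and GJA10 (a connexin) with Millipore, at ranks 291, 98, 9145 and 949, and in NIBAN3 with Perseus, at rank 5735. None of 103 basal Millipore and 133 basal Perseus coding peaks held it, which allows shares of up to 2.91% and 2.26%, taking 3 counts as the limit of a count of 0. The basal Millipore peak at CELSR3, rank 27, is not among the 103, because it lay 994 bp from a gene start. The share among the other peaks of these lists is not given here. The difference from the windows left out 0 in the overexpressed Millipore list alone, at 0.530 points (0.0928 to 1.64).

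At the other dosage or with the other antibody, most lists had coding peaks found again about as often as the rest. Except in the overexpressed Millipore list, more of the coding than of the other peaks were at sites in all 4 lists. A peak in all 4 lists was present at 14 of 864 coding sites, 1.62% (0.968 to 2.70%), and at 158 of 24829 other sites, 0.636% (0.545 to 0.743%). A site counted as coding if any of its peaks did, so sites with peaks in more lists had more chances to count. That comparison of sites is therefore tilted toward coding sites, and no conclusion is drawn from it. Counted by list, 11.65% of basal Millipore and 8.27% of basal Perseus coding peaks were at sites in all 4 lists. These were 8.06 (3.17 to 15.7) and 5.96 (2.35 to 11.9) points more than of the other peaks. With overexpression the differences were 0.245 points (-0.550 to 1.68) for Millipore and 2.45 points (0.254 to 6.39) for Perseus. Against other exons the differences were 5.95 (-0.858 to 14.0) points for basal Millipore, 4.81 (0.263 to 10.95) for basal Perseus and 0.603 (-2.88 to 4.86) for overexpressed Perseus. Against introns they were 8.14 (3.19 to 15.8), 5.325 (1.65 to 11.3) and 1.93 (-0.358 to 5.89), in this order. Of the basal Millipore peaks within 1 kb of gene starts, 14.1% were at sites in all 4 lists. Sharing depends on the lengths of both lists, so it is compared within a list. At the other dosage of the same antibody, 21 of 103 basal Millipore coding peaks (20.4%) were found again, 19 of 559 overexpressed Millipore (3.40%), 47 of 133 basal Perseus (35.3%) and 44 of 195 overexpressed Perseus peaks (22.6%), beside 12.4%, 4.53%, 29.5% and 26.2% of all peaks in these lists. The basal Millipore difference from the other peaks of the list was 8.20 points (1.47 to 17.0). Against introns it was 8.08 points (1.25 to 17.0) and against other exons 1.40 points (-8.13 to 11.7). Against peaks within 1 kb of gene starts it was -11.1 points (-20.8 to -0.342). The difference from all other peaks was 5.39 points with an interval from -0.631 to 13.8 when 50% of the shorter peak had to overlap. Its odds ratio of 1.85 (1.13 to 3.00) became 1.06 (0.618 to 1.81) within GC strata. The differences of -1.19, 6.0 and -3.74 points in the other 3 lists did not leave out 0, but within GC strata the overexpressed Perseus coding peaks were found at the basal dosage less often than the others, with an odds ratio of 0.590 (0.418 to 0.832).

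The largest difference was in the overexpressed Perseus list, in its overlap with Millipore. Of its 195 coding peaks, 80 (41.0%) coincided with an overexpressed Millipore peak, beside 18.5% of all its peaks. The difference of 23.2 points (16.4 to 30.2) from the other peaks was 22.4 points (15.5 to 29.5) against introns and 20.4 points (13.5 to 27.6) against peaks within 1 kb of gene starts. It was smaller against other exons, 27.8% of whose peaks were found by Millipore, at 13.25 points (4.85 to 21.6), and in the better-ranked 50% of the lists, at 14.7 points (6.73 to 23.75). It was 27.0 points (17.3 to 37.3) without the peaks near any transcript start. GC content moved with it in part: the odds ratio was 3.20 (2.39 to 4.28) and 2.20 (1.63 to 2.98) within GC strata. In the other 3 lists the overlap with the second antibody at the same dosage was 17 of 103 for basal Millipore (16.5%), 70 of 559 for overexpressed Millipore (12.5%) and 17 of 133 for basal Perseus (12.8%), beside 11.6%, 11.5% and 7.65% of all peaks. Of these, the basal Perseus difference of 5.24 points (0.545 to 12) left out 0, and its odds ratio in GC strata was 1.72 (1.01 to 2.91). Against introns that difference was 2.38 points (-2.46 to 9.23) and against other exons 2.055 points (-4.14 to 9.46), neither of which left out 0. Against peaks within 1 kb of gene starts it was 9.92 points (5.19 to 16.7). The difference from all other peaks was 5.32 points with an interval from -1.03 to 15.1 without the peaks near any transcript start. The basal Millipore difference was 5.01 points (-1.01 to 13.4) and the overexpressed Millipore difference 1.10 points (-1.47 to 4.15).

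**Figure D4:**
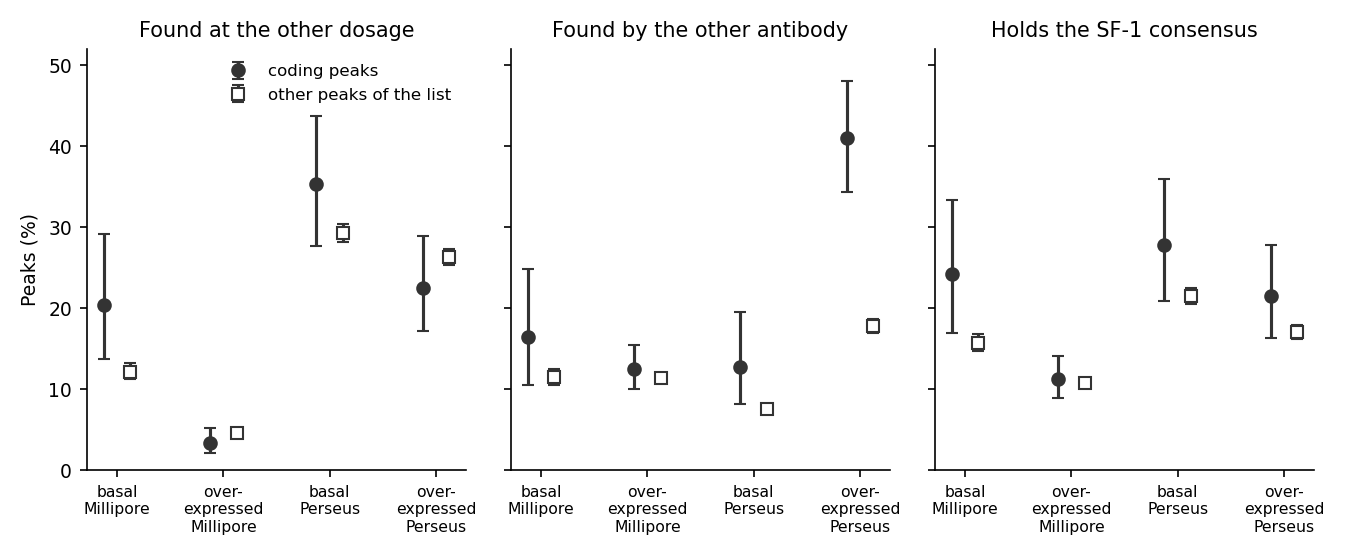
Share (percent) of coding peaks (filled circles) and of the other peaks of the same list (open squares) that were found at the other dosage of the same antibody, found by the other antibody at the same dosage, or held the SF-1 consensus, with 95% Wilson intervals. The 2 symbols lie farthest apart for overexpressed Perseus peaks found by Millipore, 41.0% against 17.9%.

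Coding peaks with the consensus were shared more often than those without it. In the basal Millipore list 15 of 25 with it and 6 of 78 without it were found at the other dosage, a difference of 52.3 points (31.4 to 69.4), and 13 of 25 against 4 of 78 by Perseus. In the basal Perseus list the difference at the other dosage was 22.2 points (3.91 to 39.4). In the overexpressed Millipore list Perseus found 20 of 63 (31.7%) with it and 50 of 496 (10.1%) without it, a difference of 21.7 points (11.1 to 34.2). In the overexpressed Perseus list Millipore found 21 of 42 with it and 59 of 153 without it, a difference of 11.4 points with an interval from -5.05 to 27.7. Of the 80 overexpressed Perseus coding peaks that coincided with Millipore, 59 thus had no consensus. Over the sites, the consensus was present at 70 of 720 coding sites in 1 list (9.72%), 24 of 98 in 2 lists (24.5%), 17 of 32 in 3 lists (53.1%) and 12 of 14 in all 4 lists (85.7%, 60.1 to 96.0%). Sites outside coding exons ran from 10.1% in 1 list to 67.1% (59.4 to 73.9%) in all 4, and their intervals overlapped those of the coding sites throughout. The widest peak of a coding site also grew with the number of lists, and reached a median of 399 bp in all 4 lists, and its part in these shares was not tested.

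**Figure D5:**
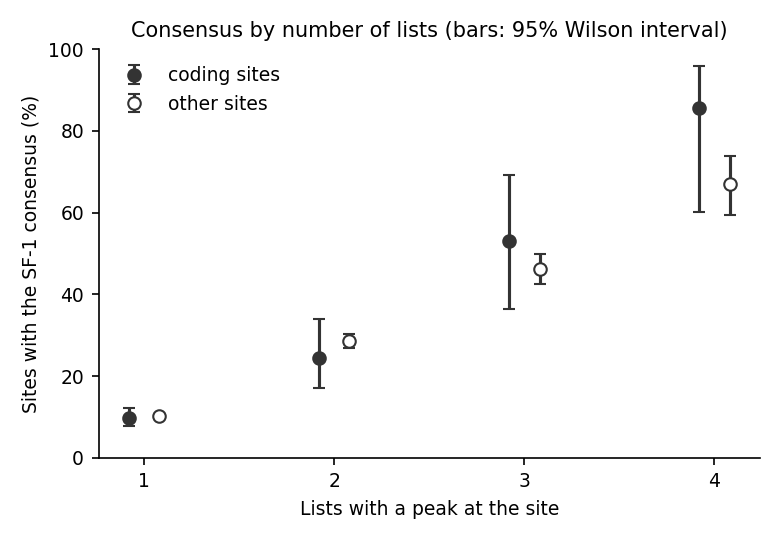
Share (percent) of sites with the SF-1 consensus by the number of lists that have a peak there, for coding sites (filled) and all other sites (open), with 95% Wilson intervals. Coding sites run from 9.72% of 720 sites in 1 list to 85.7% of 14 sites in all 4 lists.

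In rank, coding peaks were spread through their lists. The best-ranked 25% of a list held 24.3%, 25.4%, 21.1% and 31.8% of its coding peaks in the basal Millipore, overexpressed Millipore, basal Perseus and overexpressed Perseus lists, and only the last differed from the other peaks, by 6.98 points (0.768 to 13.9). The coding peaks in the best-ranked 25% of the overexpressed Millipore list included 13 of the 19 that were found at the basal dosage and 28 of the 63 with the consensus. In the basal Perseus list they included 15 of the 47 found at the other dosage and 8 of the 37 with the consensus.

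Among the 12 best-placed coding sites of all 4 lists, POR stood out for its place in the pathway, since it encodes cytochrome P450 oxidoreductase, which passes electrons to the microsomal P450 enzymes of steroid synthesis. The POR site lay in exon 13, at chr7:75614851-75615249, and its ranks were 2916 in the basal Millipore, 221 in the overexpressed Millipore, 177 in the basal Perseus and 102 in the overexpressed Perseus list. All 4 of its peaks held the consensus and were centred in the exon of 271 bp, at least 8899 bp from the nearest start of a protein-coding gene, though within 187 bp of the start of some transcript. A second coding site of POR, at chr7:75609901-75610149, was found by Millipore after overexpression alone, at rank 444, in coding sequence of a transcript other than the canonical one and without the consensus. VSIG8, which encodes an immunoglobulin-domain protein, had the best single rank of the 4-list sites with Perseus. Its site in the last coding exon, at chr1:159824351-159824799, ranked 1751 (basal Millipore), 330 (overexpressed Millipore), 735 (basal Perseus) and 81 (overexpressed Perseus), with 74.2 to 76.5% GC. POR, VSIG8 and PROSER3 were the sites among the 12 where every list contributed a peak centred in coding sequence.

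APOA1, the main apolipoprotein of high-density lipoprotein, had the most even ranks, at 968, 1334, 1347 and 973 in the basal Millipore, overexpressed Millipore, basal Perseus and overexpressed Perseus lists. Its site filled part of the last coding exon (exon 4, chr11:116706401-116706799), and the printed stretch ends with the stop codon. SRCIN1, a regulator of the Src kinase, had ranks of 1524, 911, 800 and 558, in the same order of lists, in exon 15, 54730 bp from the nearest gene start. PTPN6, the phosphatase SHP-1, had ranks of 400, 265, 1679 and 1487 in exon 4. ACVRL1, a receptor of the TGF-β family, ranked best after overexpression, at 3864, 130, 1681 and 781.

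With Millipore, DCAKD, CIB1, APOA1, PLIN5 and NPR1 had the smaller rank number at the basal dosage, in a list of 4393 peaks against 11910. DCAKD, a gene of a dephospho-CoA kinase domain protein, ranked 63 and 2251 in the basal and overexpressed lists of Millipore, and 6123 and 4283 in those of Perseus. CIB1 ranked 231 and 6204 in the Millipore lists and 5032 and 641 in the Perseus lists. PROSER3 ranked 567, 364, 3244 and 455 in exon 9 and carried 2 copies of the consensus in its overexpressed Millipore peak. PLIN5, a protein of lipid droplets, ranked 659, 2192, 1668 and 7276 and had no consensus. NPR1, the receptor of atrial natriuretic peptide, ranked 1385, 8221, 952 and 1808. The consensus at NPR1 lay in a peak of the site that was not centred in coding sequence, so its sequence is not among those shown. All 12 had a peak at both dosages and with both antibodies by construction, and a rank in a short list does not mean the same as that rank in a long one.

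The best-ranked coding peaks of each list were led by other genes. In the basal Millipore list they were in INSM2 (a zinc finger factor of neuroendocrine cells, rank 7), CORO2B (a coronin, rank 45), DCAKD (rank 63), CIB1 (rank 231) and COL6A6 (a collagen VI chain, rank 241). In the overexpressed Millipore list they were in CCDC71 (rank 61), NEFH (the heavy neurofilament protein, rank 69), CELSR3 (rank 98), INSM2 (rank 113) and HCRTR1 (an orexin receptor, rank 164). INSM2 was thus a leading site at both dosages with Millipore, at chr14:36004351-36004799 in its single coding exon of 1698 bp, and had neither consensus. At NEFH 98.3% of the 31-base words in the centre of the rank 69 peak occur more than once in the genome. This was the only coding peak in which over 50% did, against 5.25% of the coding windows. In the basal Perseus list the leading coding peaks were in IRS2 (ranks 163 and 282), POR (rank 177), ZER1 (an adaptor of a ubiquitin ligase) and RBPJ (the DNA-binding effector of Notch signalling, rank 403). In the overexpressed Perseus list they were in POLM (a DNA polymerase, rank 74), VSIG8 (rank 81), POR (rank 102), ZIC5 (rank 170) and IRS2 (rank 222). None of the Millipore leaders recurred among the Perseus leaders, although several lay at sites found by both antibodies. POR and VSIG8 had ranks 221 and 330 in the overexpressed Millipore list, and the sites of DCAKD and CIB1 were in all 4 lists. INSM2, CELSR3, COL6A6 and POLM were among those found by 1 antibody alone.

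A gene rarely held several coding sites: 745 of the 800 genes had 1, 48 had 2, 5 had 3, and IRS2 and ANKRD52 had 4. In IRS2 all 4 lay in the large first coding exon of 4012 bp. The site at chr13:110434851-110435399 ranked 283 in the overexpressed Millipore, 282 in the basal Perseus and 779 in the overexpressed Perseus list and held the consensus shown above. A neighbour at chr13:110436001-110436499 ranked 163 (basal) and 222 (overexpressed) with Perseus and had no consensus. Its other sites had rank 1058 in the basal Perseus list and rank 6697 in the overexpressed Perseus list. The basal Millipore list had no coding peak in IRS2. In ANKRD52, an ankyrin repeat gene, the sites followed one another in exons 25 to 28 and came mainly from Millipore, at ranks 525 and 741 in the basal and 4384 and 10701 in the overexpressed list, with a Perseus peak at rank 6338.

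Of 19 genes of steroid synthesis, 2 held a coding site, beside 800 of the 19012 genes with a coding window. They were POR and HSD17B1, which converts estrone to estradiol. The coding peak of HSD17B1 lay at exon 6, at rank 6027 in the overexpressed Perseus list. An overlapping peak of the overexpressed Millipore list, at rank 4623, did not meet the rule for coding peaks, and the site had no consensus. Of 25 regulators of the adrenal and the gonads, 7 held a coding site. AMHR2 (the receptor of anti-Müllerian hormone) ranked 768 in the overexpressed Millipore and 2377 in the basal Perseus list, with the consensus in both peaks. SCARB1 (the receptor that takes up cholesterol from high-density lipoprotein) ranked 1635 in the overexpressed Millipore list with the consensus. NR4A1 (an orphan nuclear receptor) ranked 172 and 1349 in the overexpressed Millipore and Perseus lists without it. All of these peaks lay within 1 kb of the start of some transcript. The distances were 425 and 350 bp for AMHR2, 117 bp for SCARB1, and 580 and 605 bp for NR4A1, in the order of the ranks. EMX2, NR5A2 and VAV2 had 1 Perseus peak each, at ranks 6451, 7168 and 2519. The 2 lists made up 0.347% and 0.810% of the 864 sites, beside 0.0571% and 0.121% of the coding windows, from 3 and 7 sites.

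NR5A1 itself had 1 coding peak, in the overexpressed Millipore list at rank 4923. It covered chr9:127262501-127263149, with its centre in exon 4 and 76.1% of its 649 bp in coding sequence, and it had no consensus. The centre lay 440 bp from the start of some transcript. The exon runs from 127262369 to 127262994, so the peak also covers the neighbouring intron. The cells carry an inducible SF-1 gene in addition to NR5A1, and its part in this peak was not tested.

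Other gene families varied. ZNF and ZFP zinc finger genes, which make up 3.12% of the coding windows, held 16 sites, 1.85% (1.14 to 2.99%) of the total. Forkhead factors held 5 sites (0.579%, 0.247 to 1.35%) beside 0.174% of the windows, solute carriers 17 (1.97%, 1.23 to 3.13%) beside 1.83%, and collagens 5 beside 0.611%. HOXA10, a homeobox factor of the body axis and the uterus, was the only one of 39 HOX genes with a coding site, at ranks 560, 4220 and 1728 in the overexpressed Millipore, basal Perseus and overexpressed Perseus lists, and its Millipore peak held the consensus. The HOXA10 peaks lay within 568 bp of the start of some transcript. Protocadherins, keratins, olfactory receptors, potassium channels, CACNA calcium channels, ADAMTS proteases, laminins, myosins, plexins and semaphorins had between 1 and 7 sites each, with intervals that covered their share of the windows. No coding site fell in the mucins, the axonemal dynein heavy chains, the SOX factors, the NOTCH receptors or the tubulins, for which a count of 0 allows up to 0.347% of the sites at 3 counts. The mucins and the axonemal dyneins hold 0.501% and 0.520% of the windows, above that limit and above the Wilson limit of 0.443%.

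By chromosome, chromosome 19 had 106 coding sites, 12.3% (10.2 to 14.6%) beside 6.63% of the windows, and chromosome 9, which carries NR5A1 and ZER1, had 76, 8.80% (7.09 to 10.9%) beside 3.98%. Chromosome 2 had 27 (3.13% beside 7.49%). Chromosome X had 7, 0.810% (0.393 to 1.66%) beside 3.71%. The share of all peaks on each chromosome is not given here, so these shares are not read as particular to coding sites. DNA copy number of the cells was not analysed here, and its part in these shares was not tested.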

How the data were processed

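The deposited files hold 4 peak lists of ChIP-seq with 3 pooled libraries each. As the authors' methods and labels state, reads were mapped to hg19 with ELAND 2 (CASAVA 1.6) and peaks were called with CisGenome 2 on pooled libraries against input. Each list gives chromosome, start, end and a rank whose basis is not stated. The score column the authors deposited held 1000 throughout and was not used, and start and end are positions of another unit than counts. Depth per sample is unknown, and no list was made for the input.

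From these, peak centres were compared with GENCODE version 44 on GRCh37, which is hg19. Coding windows of the median peak width tiled all coding sequence farther than 1 kb from each gene's outermost start. GC content, the SF-1, NRSF/REST and CTCF-type consensus sequences and 31-base words were read from the reference. The CTCF-type sequence, tied to neither factor, was in 1 overexpressed Millipore and 1 basal Perseus coding peak. Shares carry Wilson, differences Newcombe, odds ratios Woolf or Mantel-Haenszel intervals at 95% (Python 3.11.15, statsmodels 0.14.6, scipy 1.17.1). The counting was tested on simulated data. Named were the 5 best-ranked coding peaks per list, the 12 best-placed sites of all 4 lists, genes with 4 or more sites, and members of fixed gene lists. NRSF/REST peaks and the genes at the distance limit were named after their values were seen. The members and lists were chosen with earlier results of these data known. Of the 12 sites, 1 is not reported here.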

Additional observations from a re-analysis of the deposited data

Results flagged for a closer look

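The change of the coding share with SF-1 dosage differed between the antibodies by a test of the difference itself. The dosage odds ratio with Millipore was 1.57 times that with Perseus (Woolf interval 1.15 to 2.13), from coding shares of 2.35% (basal) and 4.69% (overexpressed) with Millipore and of 2.01% (basal) and 2.62% (overexpressed) with Perseus. The test takes peaks as independent and rests on 1 pooled list per group. Within strata of 5 points of GC content the ratio was 0.966 (0.700 to 1.33). It was 1.40 (0.972 to 2.01) with lists cut to the shortest and 1.35 (0.888 to 2.05) with the better-ranked 50%, so none of the 3 alternatives left out 1.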

How the results depend on the processing

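Of 111 recomputed values, 81 kept their direction and their side of the threshold or stayed within the counting interval. The enrichment of the SF-1 consensus over coding windows and the GC difference from them did so in every list, as did, except for its odds ratio in GC strata, the Millipore dosage difference of the coding share and the excess of overexpressed Perseus coding peaks found by Millipore. Counting the starts of every transcript moved the coding share most, to 1.59% in the basal Millipore, 2.94% in the overexpressed Millipore, 1.13% in the basal Perseus and 1.22% in the overexpressed Perseus list. A distance of 2 kb gave 4.17% in the overexpressed Millipore, 1.68% in the basal Perseus and 2.08% in the overexpressed Perseus list, and the better-ranked 50% of the overexpressed Perseus list gave 3.11%. The Perseus dosage difference was 0.0874 points with the starts of every transcript, 0.402 points with 2 kb and 0.480 points with peaks within 500 bp merged, and none of these left out 0. GC strata took the dosage odds ratios to 1.17 with Millipore and 1.22 with Perseus and their ratio to 0.966, and that ratio was 1.40 with lists cut to the shortest and 1.35 with the better-ranked 50%, and none of these left out 1. In the basal Millipore list, the coding excess found at the other dosage was 5.39 points with overlap of 50% of the shorter peak and 4.73 points in the better-ranked 50%, and its odds ratio was 1.06 in GC strata. The consensus excess in that list was 7.98 points in the better-ranked 50% and 6.21 points without peaks near any transcript start, and the odds ratio of being found by Perseus turned to 0.992 in GC strata. In the overexpressed Millipore list the difference found by the other antibody turned to -0.318 points in the better-ranked 50%, and its odds ratio to 0.774 in GC strata. In the basal Perseus list, without peaks near any transcript start, the differences were 9.83 points for the other dosage, now past the threshold, and 5.32 points for the other antibody, no longer past it. The consensus excess there was 17.0 points in the better-ranked 50%, past the threshold, and the dosage odds ratio turned to 0.966 in GC strata. In the overexpressed Perseus list the dosage odds ratio passed the threshold at 0.590 in GC strata, and the core in place of the consensus gave 12.2 points, past it too. The causes were not tested. The GC strata of sharing and of the ratio, the ratio's other alternatives and the leaving out of peaks near any transcript start, 23 values, were chosen after seeing the data. No paired analysis was possible because replicates were pooled into 1 list per group. Depth behind the lists is unknown, and shares in the basal Millipore list rest on 103 coding peaks.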
